A study of Mus musculus with 7 samples.

Results

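The genes described here make, activate, transfer or remove sialic acid, or encode the Siglec receptors that bind it. They were taken by symbol: every St3gal, St6gal (St6galnac genes included), St8sia and Siglec gene, together with Cd22, Cd33, Gne, Nans, Nanp, Cmas, Cmah, Slc35a1, Neu1, Neu2 and Neu3. The rule found 37 genes among the 19938 genes named by a probeset of their own. They comprise 6 genes of sugar synthesis and activation, 6 St3gal, 8 St6gal and 6 St8sia transferases, 3 sialidases and 8 receptors. Of these, 2 genes, St3gal1 and Nanp, had more than 1 probeset, and their brightest probeset was used.

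The data are 7 Affymetrix Mouse Gene 1.0 ST arrays, each hybridised with RNA of 1 pool of sorted lung type 2 conventional dendritic cells (cDC2s; CD11c+ MHC-II+ CD11b+ Ly6C- CD64-) from 10 female mice on a C57Bl/6 background. The groups were Irf3-deficient mice given 100 µg of house dust mite extract (3 arrays), wild type mice given 100 µg of the same extract (2 arrays) and wild type mice given PBS (2 arrays), all taken 12 hours later. Irf3-deficient mice given PBS were not analysed here, so a difference between the treated genotypes cannot be split into one present before treatment and one that arises with it. The allele behind the Irf3 deficiency is not given in the sources used here. Irf3 itself had log2 levels of 8.26, 8.13 and 8.30 in the Irf3-deficient arrays, 9.59 and 9.57 in treated wild type arrays, and 9.48 and 9.56 in PBS wild type arrays. All values below are log2 levels as deposited or differences of them, tested with limma, and a gene "rose", "fell" or "was higher" or "lower" only where its p-value, adjusted by Benjamini-Hochberg over all 19938 genes, was under 0.05. Pearson correlations over all genes ran between 0.995 and 0.997 within groups and between 0.973 and 0.990 across them. With 2 or 3 arrays a group the precision is limited, and the standard errors of the members' differences ran between 0.09 and 0.29.

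Sialic acid is the sugar that most often caps the glycans of a vertebrate cell. It is built in the cytosol by Gne, Nans and Nanp, activated in the nucleus by Cmas, carried into the Golgi by Slc35a1 and placed by sialyltransferases, while the sialidases Neu1, Neu2 and Neu3 remove it. Siglecs are surface receptors that read these caps. Many of them, Siglece and Cd22 among them, carry cytoplasmic inhibitory motifs that recruit phosphatases and dampen immune cell activation, whereas Siglec1 (sialoadhesin) is an adhesion receptor of macrophages. In the lung, Siglecf is best known from eosinophils and alveolar macrophages, and Siglech from plasmacytoid dendritic cells.

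The receptor genes Cd33 and Siglece both lie in the Siglec cluster of chromosome 7. Their upstream sequences are shown because these neighbours moved in the same direction in both comparisons below. Each line holds the 250 bases before the RefSeq start site in GRCm38.p6, read on the gene's strand, which is the minus strand for both genes. Capitals mark GAGGAA or its reverse complement TTCCTC, the core bound by PU.1, an ETS factor of myeloid cells.
Cd33, chr7:43533172-43533421: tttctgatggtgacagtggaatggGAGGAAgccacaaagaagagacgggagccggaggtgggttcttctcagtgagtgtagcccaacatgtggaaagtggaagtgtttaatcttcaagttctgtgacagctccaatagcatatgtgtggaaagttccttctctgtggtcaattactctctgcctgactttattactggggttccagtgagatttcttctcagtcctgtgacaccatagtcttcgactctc
Siglece, chr7:43660162-43660411: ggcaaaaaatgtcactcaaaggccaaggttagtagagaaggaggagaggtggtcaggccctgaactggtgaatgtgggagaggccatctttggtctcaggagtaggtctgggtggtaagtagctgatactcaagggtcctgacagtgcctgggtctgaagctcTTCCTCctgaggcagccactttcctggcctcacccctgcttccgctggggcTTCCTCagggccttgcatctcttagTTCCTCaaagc

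The Cd33 window held 1 such core and the Siglece window 3. On either strand, 23.3% of all 32851 promoter windows of this length held the core, and 8 of the 34 windows available for 26 member genes did. These were the windows of Cd33, Siglece, Siglecf, Siglecg, Cmas, St3gal3, St3gal4 and St8sia4. Among them, Siglecg, Cmas and St3gal3 passed in no comparison. Searched on both strands as well, an interferon response element (GAAA, any 2 bases, GAAA) was in 2.98% of all windows, an ETS-IRF composite element (GGAA, any 2 bases, GAAA) in 2.30% and the STAT element TTCNNNGAA in 7.02%. Of the members' windows, 0 of 34 held either of the first elements, and 1, that of Siglech, held the last. Siglec1 and St6galnac2 had no entry in the promoter table and were not searched.

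In treated wild type cDC2s, the inhibitory receptor gene Siglece and its neighbour Cd33 fell, as did the sialyltransferases St6gal1, St3gal6, St3gal5 and St8sia6, while Siglec1, Cd22 and the polysialic acid synthase St8sia4 rose. In all, 5 of the 37 genes rose and 9 fell in treated against PBS wild type, or 37.8%, against 17.6% of all genes (8.35% called higher and 9.23% called lower). Among the 25 members brighter on average than the median gene, 56.0% were called, against 34.0% of all genes in that brighter range. The median difference over the members was 0.00, and over all genes 0.03. Leaving out treated wild type array 2 or PBS wild type array 1 leaves 1 array in that group. Fewer members were then called, and fewer of all genes as well.

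Between the treated genotypes, 9 members were higher and 5 lower in Irf3-deficient cDC2s. St6galnac2 was higher by far the most, Cd33, Siglece, St8sia6, St6gal1 and St3gal6 were higher as well, and Siglec1, Nans, St3gal2 and Cd22 were lower. This makes 37.8% of the members, against 19.7% of all genes (10.7% called higher and 9.0% called lower). Among the 25 brighter members 52.0% were called, against 39.6% of all genes in that range. The median difference over the members was 0.07, against 0.00 over all genes. Both comparisons use the treated wild type arrays, with opposite sign, so a gene that is off in those arrays appears in both, and the values of each comparison are given side by side below.

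**Figure D1:**
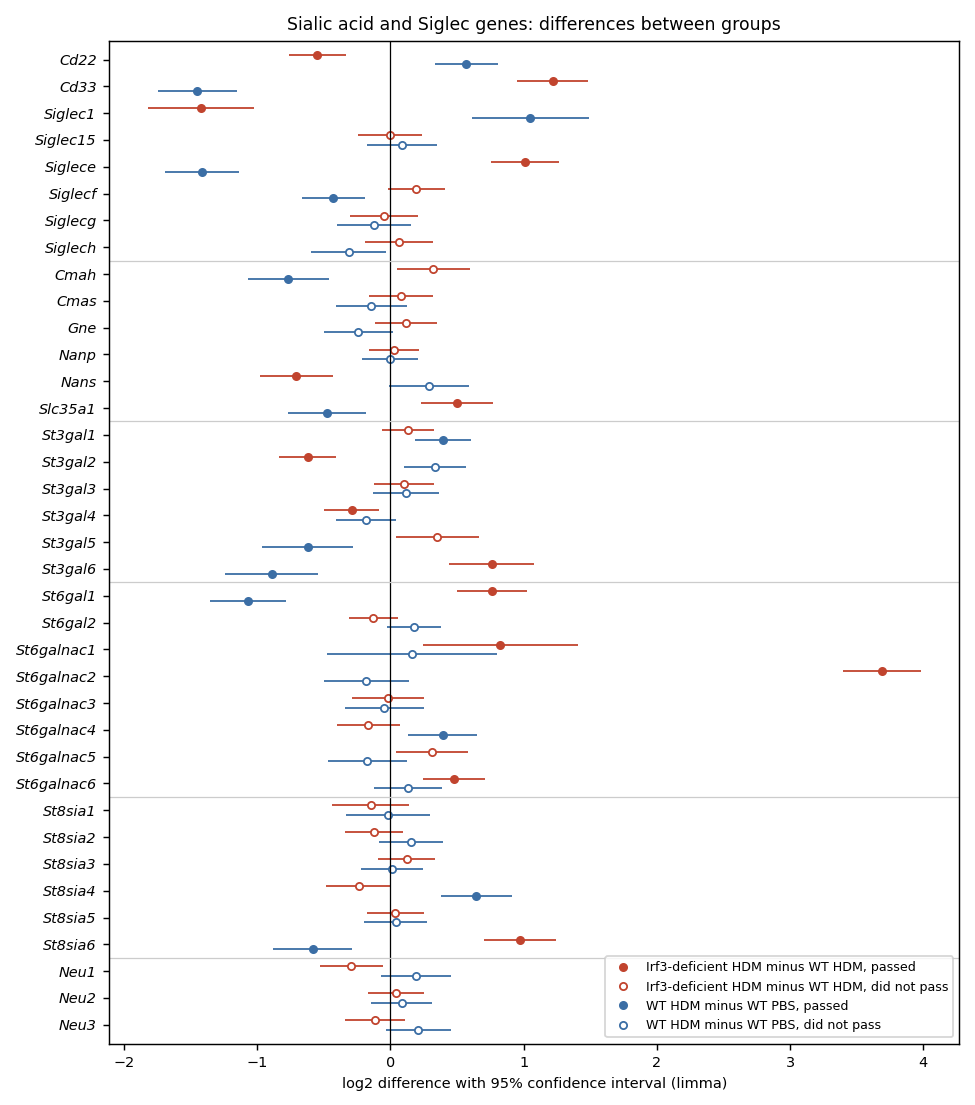
Log2 differences of all 37 genes with 95% confidence intervals, grouped from top to bottom as receptors, sugar synthesis, St3gal, St6gal, St8sia and sialidases. Red is treated Irf3-deficient minus treated wild type and blue is treated minus PBS wild type, filled where the adjusted p was under 0.05; St6galnac2 lies alone at 3.69 in red.

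Among the genes of sugar synthesis, the steps divided. Nans, which condenses the sugar precursor to sialic acid phosphate, had 9.70, 9.70 and 10.06 in Irf3-deficient arrays, 10.48 and 10.57 in treated wild type arrays, and 10.29 and 10.18 in PBS wild type. It was lower in Irf3-deficient than in treated wild type cells by a difference of -0.70 ± 0.13 (SE, limma adjusted p = 0.00152), and the treated wild type difference from PBS, 0.29, did not pass (adjusted p = 0.193). The Irf3-deficient difference from PBS wild type, -0.41, did not pass either (adjusted p = 0.0556), but did without Irf3-deficient array 3, at -0.54 (adjusted p = 0.0194). Both treated wild type arrays were the highest and none of the 3 groups overlapped.

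Slc35a1, the Golgi carrier of activated sialic acid, had 8.47, 8.24 and 8.27 in Irf3-deficient arrays, 7.76 and 7.88 in treated wild type arrays, and 8.47 and 8.13 in PBS wild type. It fell in treated against PBS wild type by a log2 difference of -0.48 ± 0.14 (adjusted p = 0.0296) and was higher in Irf3-deficient than in treated wild type cells by 0.50 ± 0.12 (adjusted p = 0.0121). Both arrays of treated wild type lay below the other 5, which overlapped. The wild type change rests on single arrays: it was -0.31 without PBS array 1 (adjusted p = 0.23), and it was also lost without either treated array, while the genotype difference was lost without treated wild type array 1 (adjusted p = 0.0884).

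Cmah, the hydroxylase that turns N-acetyl into N-glycolyl sialic acid, had 6.93, 7.08 and 6.82 in Irf3-deficient arrays, 6.81 and 6.43 in treated wild type arrays, and 7.47 and 7.30 in PBS wild type. It fell in treated against PBS wild type by -0.76 ± 0.14 (adjusted p = 0.00185). The Irf3-deficient difference from treated wild type, 0.32, did not pass (adjusted p = 0.103; 0.51 and adjusted p = 0.0241 without treated wild type array 1), whereas that from PBS wild type did, at -0.44 (adjusted p = 0.0416), and was lost without any single one of the 5 arrays of those groups. Cmah was dim on these arrays. Gne, the bifunctional first enzyme, Nanp, the phosphatase, and Cmas, the activating enzyme, passed in none of the 3 comparisons, with differences between -0.24 and 0.12.

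The St3gal enzymes add sialic acid to galactose, and their 6 genes were split. St3gal6, one of the enzymes that build selectin ligands, had 9.48, 9.94 and 9.76 in Irf3-deficient arrays, 8.82 and 9.12 in treated wild type arrays, and 9.74 and 9.97 in PBS wild type. It fell 1.85-fold in treated against PBS wild type (95% CI 1.45 to 2.36, adjusted p = 0.00187) and was 1.69-fold higher in Irf3-deficient than in treated wild type cells (1.36 to 2.11, adjusted p = 0.00264). Both treated wild type arrays lay below the other 5.

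St3gal5 makes the ganglioside GM3. It had 10.56, 10.64 and 10.17 in Irf3-deficient arrays, 10.17 and 10.03 in treated wild type arrays, and 10.87 and 10.58 in PBS wild type, and fell in treated against PBS wild type by -0.62 ± 0.16 (adjusted p = 0.0157). One Irf3-deficient array overlapped the treated wild type, and that difference, 0.35, did not pass (adjusted p = 0.119), but did without Irf3-deficient array 3, at 0.50 (adjusted p = 0.0232). The fall was lost without treated wild type array 2 (adjusted p = 0.0904) and without PBS array 1 (adjusted p = 0.154).

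St3gal2, which acts on O-glycans and gangliosides, had 9.69, 9.76 and 9.78 in Irf3-deficient arrays, 10.36 and 10.36 in treated wild type arrays, and 10.05 and 10.01 in PBS wild type. It was 1.54-fold lower in Irf3-deficient than in treated wild type cells (95% CI 1.32 to 1.78, adjusted p = 0.000697), and the treated wild type difference from PBS, 0.33, missed the threshold (adjusted p = 0.0503, and 0.0338 without the intensity trend). The 3 groups did not overlap.

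St3gal1, the main enzyme of core O-glycans in lymphocytes, had 12.44, 12.40 and 12.48 in Irf3-deficient arrays, 12.30 and 12.31 in treated wild type arrays, and 11.81 and 12.01 in PBS wild type. Both treated groups lay above PBS, by 0.53 in Irf3-deficient cells (adjusted p = 0.00246) and 0.39 in wild type (adjusted p = 0.013), and the genotypes differed by 0.13 (adjusted p = 0.392). These rises rest on the brighter of its 2 probesets. The other gave 0.04 for Irf3-deficient treated against PBS wild type (adjusted p = 0.935) and 0.24 for treated against PBS wild type (adjusted p = 0.459), and neither call held when the probesets were averaged. Without PBS array 1 both calls were lost as well, at differences of 0.42 and 0.29, and the wild type call was lost without treated wild type array 2 (adjusted p = 0.0587).

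St3gal4, another enzyme of selectin ligands, had 10.59, 10.72 and 10.62 in Irf3-deficient arrays, 10.95 and 10.92 in treated wild type arrays, and 11.12 and 11.10 in PBS wild type, with no overlap between groups. Irf3-deficient cells lay below PBS wild type by -0.47 (adjusted p = 0.00722), a call lost without PBS array 1 (adjusted p = 0.0708). Their difference from treated wild type, -0.29, was at the threshold (adjusted p = 0.0495) and was lost without any single array. St3gal3 passed in no comparison, with differences of 0.10 to 0.22.

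The largest difference of any member was in the St6gal group, whose enzymes place sialic acid on galactose or, for the St6galnac genes, on the N-acetylgalactosamine of O-glycans and on gangliosides. St6galnac2, an O-glycan enzyme, had log2 levels of 12.03, 11.79 and 11.65 in Irf3-deficient arrays, 8.18 and 8.09 in treated wild type arrays, and 8.16 and 8.48 in PBS wild type. Every Irf3-deficient array stood above every wild type array by more than 3 units. It was 12.9-fold higher than in treated wild type (95% CI 10.5 to 15.8, adjusted p = 1.21e-08) and 11.4-fold higher than in PBS wild type (9.29 to 13.9, adjusted p = 2.42e-08). Between the wild type groups it differed by -0.18 (95% CI -0.50 to 0.14, adjusted p = 0.495). Leaving out any 1 array left the difference between the treated genotypes between 3.58 and 3.77.

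St6galnac1, which starts sialylated O-glycans, is 2 measured genes away from St6galnac2. It had 7.95, 9.02 and 7.78 in Irf3-deficient arrays, 7.45 and 7.41 in treated wild type arrays, and 7.15 and 7.37 in PBS wild type. The Irf3-deficient arrays were all above the others but spread widely, and the mean of 8.25 ± 0.67 (SD, n = 3) was carried by 1 array. The difference from treated wild type, 0.82 ± 0.27 (adjusted p = 0.0478), dropped to 0.44 without Irf3-deficient array 2, where the call held, and was lost without any single wild type array and under 4 other settings. The difference from PBS wild type, 0.99 (adjusted p = 0.0336), was 0.60 without the same array and was lost without either PBS array.

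The same neighbourhood held other genes that were higher in Irf3-deficient cells. Of the 5 measured genes on each side of St6galnac2, 4 besides St6galnac1 were higher than in treated wild type and none lower. The long noncoding RNA BC018473, which lies between both sialyltransferase genes, had 13.44, 13.21 and 12.65 in Irf3-deficient arrays, 6.55 and 6.80 in treated wild type arrays, and 6.41 and 6.45 in PBS wild type. That is a difference of 6.42 ± 0.18 between the treated genotypes (SE, limma). Cygb, a globin gene, differed by 2.10, the matrix remodelling gene Mxra7 by 1.63 and the noncoding RNA Snhg16 by 0.73. Aanat, Rhbdf2, Prcd, Jmjd6 and Mettl23, in the same stretch, differed by -0.33 to 0.14 between the treated genotypes without passing. In treated against PBS wild type, Mxra7 fell, at -0.54, and Rhbdf2 rose by 0.58. Against PBS wild type, Irf3-deficient cells were higher in BC018473, Cygb, Mxra7, Rhbdf2 and Snhg16, by 6.67, 2.26, 1.09, 0.51 and 0.47. Whether overlapping or read-through transcripts enter these probesets, and whether the region of the Irf3-deficient mice differs from that of the wild type mice in sequence, was not tested.

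**Figure D2:**
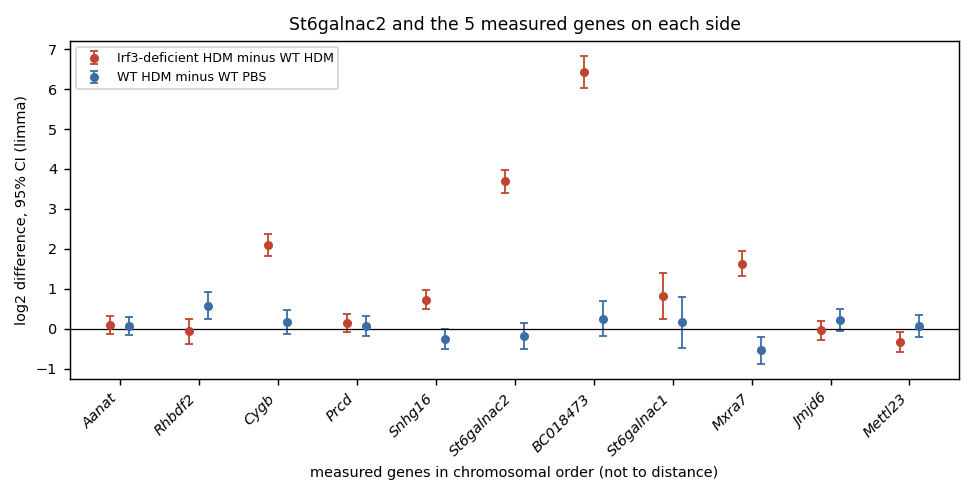
Log2 difference with 95% confidence interval for St6galnac2 and the 5 measured genes on each side, in chromosomal order from left to right and not to distance. Red is treated Irf3-deficient minus treated wild type, where BC018473 at 6.42 and St6galnac2 at 3.69 stand highest, and blue is treated minus PBS wild type, between -0.54 and 0.58.

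St6gal1 caps N-glycans in the linkage that Cd22 binds. It had 10.70, 10.61 and 10.57 in Irf3-deficient arrays, 10.05 and 9.67 in treated wild type arrays, and 10.91 and 10.95 in PBS wild type. It fell 2.09-fold in treated against PBS wild type (95% CI 1.72 to 2.55, adjusted p = 9.72e-05) and was 1.70-fold higher in Irf3-deficient than in treated wild type cells (1.42 to 2.03, adjusted p = 0.000634). The groups did not overlap, and the Irf3-deficient arrays lay between the wild type groups, nearer to PBS, from which they differed by -0.30 (adjusted p = 0.14).

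St6galnac6, an enzyme of gangliosides and disialyl structures, had 10.00, 9.88 and 9.95 in Irf3-deficient arrays, 9.55 and 9.39 in treated wild type arrays, and 9.27 and 9.40 in PBS wild type. The Irf3-deficient arrays lay above all others, by 0.48 against treated wild type (adjusted p = 0.00691) and 0.61 against PBS wild type (adjusted p = 0.00319), while the wild type groups differed by 0.13 (adjusted p = 0.531). The first call was lost without treated wild type array 2 (adjusted p = 0.0801) and the second without PBS array 1 (adjusted p = 0.0532).

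St6galnac4 makes disialylated O-glycans. It had 9.78, 9.63 and 9.86 in Irf3-deficient arrays, 9.87 and 9.97 in treated wild type arrays, and 9.51 and 9.55 in PBS wild type. It rose in treated against PBS wild type by 0.39 (adjusted p = 0.0383), a call lost without 6 of the 7 arrays taken singly and in the fit of the wild type groups alone, and after median centring (adjusted p = 0.0613). St6gal2, St6galnac3 and St6galnac5 were dim and passed in no comparison, with differences of -0.17 to 0.31.

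**Figure D3:**
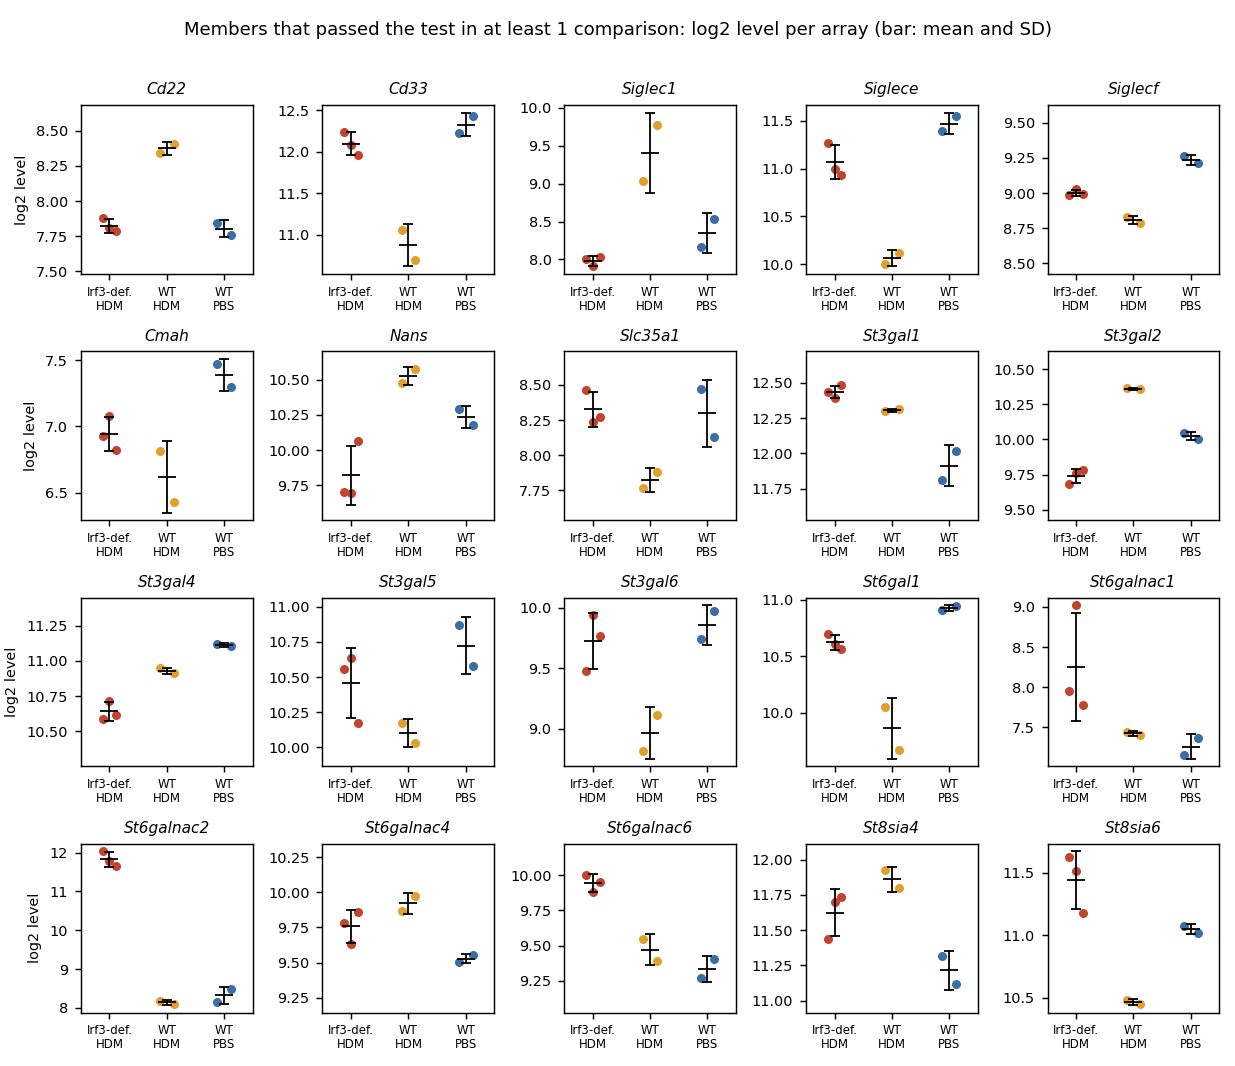
Log2 level in every array for the 20 genes that passed in at least 1 comparison, with treated Irf3-deficient (red), treated wild type (yellow) and PBS wild type (blue) from left to right and bars for mean and SD. Each panel has its own linear axis; the treated wild type arrays are lowest for Cd33, Siglece, St3gal6, St6gal1 and St8sia6 and highest for Cd22, Siglec1, Nans and St3gal2.

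The St8sia enzymes extend one sialic acid with another. St8sia6, which forms disialic acid on O-glycans and in mice makes ligands of Siglece, had 11.62, 11.52 and 11.18 in Irf3-deficient arrays, 10.48 and 10.45 in treated wild type arrays, and 11.08 and 11.02 in PBS wild type. It was 1.96-fold higher in Irf3-deficient than in treated wild type cells (95% CI 1.63 to 2.36, adjusted p = 0.000142). In treated against PBS wild type it fell by -0.58 on the log2 scale (adjusted p = 0.00973), a call lost without PBS array 1 (adjusted p = 0.0712). The 3 groups did not overlap, and the Irf3-deficient excess over PBS wild type, 0.39, did not pass (adjusted p = 0.0673). It did without Irf3-deficient array 3, at 0.52 (adjusted p = 0.0164), and with the dim genes left out (adjusted p = 0.0489).

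St8sia4 builds polysialic acid, a long polymer carried in dendritic cells by the chemokine receptor Ccr7 and by neuropilin. It had 11.43, 11.70 and 11.74 in Irf3-deficient arrays, 11.93 and 11.80 in treated wild type arrays, and 11.31 and 11.12 in PBS wild type. It rose 1.56-fold in treated against PBS wild type (95% CI 1.30 to 1.89, adjusted p = 0.00275). The treated genotypes differed by -0.24 without passing (95% CI -0.48 to 0.01, adjusted p = 0.189). Irf3-deficient cells lay above PBS wild type by 0.41 (adjusted p = 0.037), a call lost without either PBS array or Irf3-deficient array 2 or 3, and after median centring or quantile normalization.

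The GD3 synthase St8sia1 and the dimmer St8sia2, St8sia3 and St8sia5 passed in no comparison, at differences of -0.16 to 0.16. None of the sialidases passed either. Neu1, the lysosomal enzyme, had 9.29, 9.46 and 9.53 in Irf3-deficient arrays, 9.73 and 9.71 in treated wild type arrays, and 9.59 and 9.47 in PBS wild type. The treated genotypes did not overlap, but the difference of -0.29 (95% CI -0.53 to -0.05) missed the threshold (adjusted p = 0.0869). The cytosolic Neu2 and the plasma membrane enzyme Neu3 differed by -0.11 to 0.21.

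Of the 8 receptor genes, 3 fell and 2 rose in treated against PBS wild type, and 2 were higher and 2 lower in Irf3-deficient than in treated wild type cells. The shares called in these comparisons were 17.6% and 19.7% of all genes, and 34.0% and 39.6% of the brighter genes. Siglece, the inhibitory Siglec of mouse myeloid cells, had 11.27, 11.00 and 10.94 in Irf3-deficient arrays, 10.00 and 10.12 in treated wild type arrays, and 11.39 and 11.55 in PBS wild type. It was 2.66-fold lower in treated than in PBS wild type (95% CI 2.19 to 3.24, adjusted p = 8.24e-06) and 2.02-fold higher in Irf3-deficient than in treated wild type cells (1.69 to 2.41, adjusted p = 6.87e-05). The groups did not overlap. Irf3-deficient cells lay below PBS wild type by -0.40 (adjusted p = 0.0471), a call lost without 4 of the 5 arrays of those groups and after median centring (adjusted p = 0.0691).

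Cd33 showed the same order of groups. It had 12.24, 12.08 and 11.96 in Irf3-deficient arrays, 11.06 and 10.69 in treated wild type arrays, and 12.22 and 12.42 in PBS wild type. It was 2.73-fold lower in treated than in PBS wild type (95% CI 2.22 to 3.35, adjusted p = 1.01e-05) and 2.33-fold higher in Irf3-deficient than in treated wild type cells (1.93 to 2.80, adjusted p = 2.27e-05). The Irf3-deficient and PBS wild type arrays overlapped, with a difference of -0.23 (95% CI -0.50 to 0.04, adjusted p = 0.306).

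Siglec1 went the other way. It had 8.01, 7.91 and 8.03 in Irf3-deficient arrays, 9.03 and 9.78 in treated wild type arrays, and 8.17 and 8.54 in PBS wild type. It rose 2.07-fold in treated against PBS wild type (95% CI 1.53 to 2.80, adjusted p = 0.00262) and was 2.68-fold lower in Irf3-deficient than in treated wild type cells (2.03 to 3.53, adjusted p = 0.000148). Its size depended on the array: the wild type difference was 0.68 without treated array 2 and 1.42 without treated array 1, and was called both times. Irf3-deficient cells did not pass against PBS wild type (difference -0.37, adjusted p = 0.258). Beside it, the interferon-stimulated genes Irf7, Mx2, Ifit1, Rsad2 and Oasl1 differed by 3.66 to 4.63 in treated against PBS wild type and by -2.99 to -2.31 in Irf3-deficient against treated wild type. Unlike Siglec1, all 5 of them were also higher in Irf3-deficient cells than in PBS wild type, by 0.92 to 2.03.

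Cd22, the inhibitory coreceptor best known from B cells, had 7.88, 7.81 and 7.79 in Irf3-deficient arrays, 8.34 and 8.41 in treated wild type arrays, and 7.84 and 7.76 in PBS wild type. It rose 1.49-fold in treated against PBS wild type (95% CI 1.26 to 1.75, adjusted p = 0.00246) and was 1.46-fold lower in Irf3-deficient than in treated wild type cells (1.26 to 1.70, adjusted p = 0.00159). Irf3-deficient and PBS wild type cells overlapped at a difference of 0.02. Of 7 measured B cell markers, 1, Ms4a1, rose with treatment in wild type and was lower in Irf3-deficient cells, by 0.62 and -0.89. Ms4a1 was dimmer than the median gene. The others did not pass, and among them Cd79b went the other way, at -0.48 and 0.47. The mean of the list ranged between 6.79 and 6.92 in Irf3-deficient, 6.83 and 6.99 in treated wild type arrays, and 6.82 and 6.96 in PBS wild type arrays.

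Siglecf had 8.99, 9.03 and 8.99 in Irf3-deficient arrays, 8.83 and 8.79 in treated wild type arrays, and 9.26 and 9.21 in PBS wild type. It fell in treated against PBS wild type by -0.43 ± 0.11 (adjusted p = 0.0154), a call lost without treated wild type array 2 (adjusted p = 0.0896) or PBS array 1 (adjusted p = 0.0742). The groups did not overlap, and the treated genotypes differed by 0.20 (adjusted p = 0.224). Among 4 eosinophil markers 0 passed, at differences of 0.00 to 0.08 in wild type, and among 7 alveolar macrophage markers 1 rose and 2 fell in wild type and 2 were higher in Irf3-deficient than in treated wild type cells. The alveolar macrophage differences ran from -0.42 to 0.63 in wild type (median -0.27) and from 0.00 to 0.79 between the treated genotypes (median 0.24). Of all genes, 17.6% and 19.7% were called in these comparisons. Siglecg, which restrains B cells, Siglech and Siglec15, an osteoclast receptor, passed in no comparison, at differences of -0.31 to 0.09.

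In sorted pools, fewer cells of a type and less RNA per cell cannot be told apart, and markers of several other cell types moved with the receptor genes. The counts below stand beside 17.6% of all genes called in wild type and 19.7% between the treated genotypes. Of genes brighter than the median gene, 34.0% and 39.6% were called. Of 8 measured monocyte and interstitial macrophage markers, 7 fell and 1 rose in treated against PBS wild type, with a median of -1.46, and 7 were higher and 1 lower in Irf3-deficient than in treated wild type cells, with a median of 1.04. The one that went against the others was Fcgr1, which encodes the CD64 used in the sort. The mean of the list lay between 10.73 and 10.84 in Irf3-deficient, 9.81 and 10.31 in treated wild type arrays, and 11.00 and 11.28 in PBS wild type arrays. Of 9 cDC2 genes, 1 rose and 3 fell in treated against PBS wild type, and 4 were higher and 1 lower in Irf3-deficient than in treated wild type cells. Zbtb46, a transcription factor of conventional dendritic cells, rose by 0.38 in wild type, while Itgam, the gene of CD11b, Mgl2 and Cd209a fell, at -1.06, -0.56 and -0.41. Between the treated genotypes Zbtb46 was lower at -0.49, and Itgam, Mgl2, Cd209a and Itgax were higher by 0.72, 0.59, 0.46 and 0.31. Their mean lay between 12.38 and 12.47 in Irf3-deficient, 12.20 and 12.23 in treated wild type arrays, and 12.49 and 12.49 in PBS wild type arrays.

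Of 5 T and NK cell markers, 3 rose and 0 fell in treated against PBS wild type, and 0 were higher and 3 lower in Irf3-deficient than in treated wild type cells, the same directions as Siglec1 and Cd22. These were Cd8a, which differed by 1.41 in wild type and -1.02 between the treated genotypes, Nkg7 (0.44 and -0.62) and Ncr1 (0.51 and -0.49), while Cd3e and Cd3g lay between -0.11 and 0.11. Nkg7 and Ncr1 were dimmer than the median gene, and whether they were above background was not tested. The mean of the list lay between 7.01 and 7.12 in Irf3-deficient, 7.44 and 7.47 in treated wild type arrays, and 6.93 and 7.09 in PBS wild type arrays.

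Of 4 epithelial markers, 3 fell in treated against PBS wild type, Epcam at -0.94, Sftpb at -0.70 and Sftpc at -0.59. In Irf3-deficient against treated wild type cells Epcam was higher by 1.78 and Sftpc lower at -0.53. Their mean lay between 10.68 and 10.81 in Irf3-deficient, 10.34 and 10.48 in treated wild type arrays, and 11.00 and 11.03 in PBS wild type arrays. No single marker had this order of groups. Epcam was highest in the Irf3-deficient arrays, while Sftpb and Sftpc were lowest there. Of 5 plasmacytoid markers, 3 rose in wild type, Spib by 1.05, Pacsin1 by 0.58 and Tcf4 by 0.38. Between the treated genotypes Spib and Pacsin1 were lower, at -1.23 and -0.76, and Ccr9 was higher by 2.60. Of 6 neutrophil markers, 1 rose in wild type, Ly6g by 0.36, and 1 was higher in Irf3-deficient than in treated wild type cells, Cxcr2 by 1.00. The part of other cells in the Siglec differences was not tested.

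**Figure D4:**
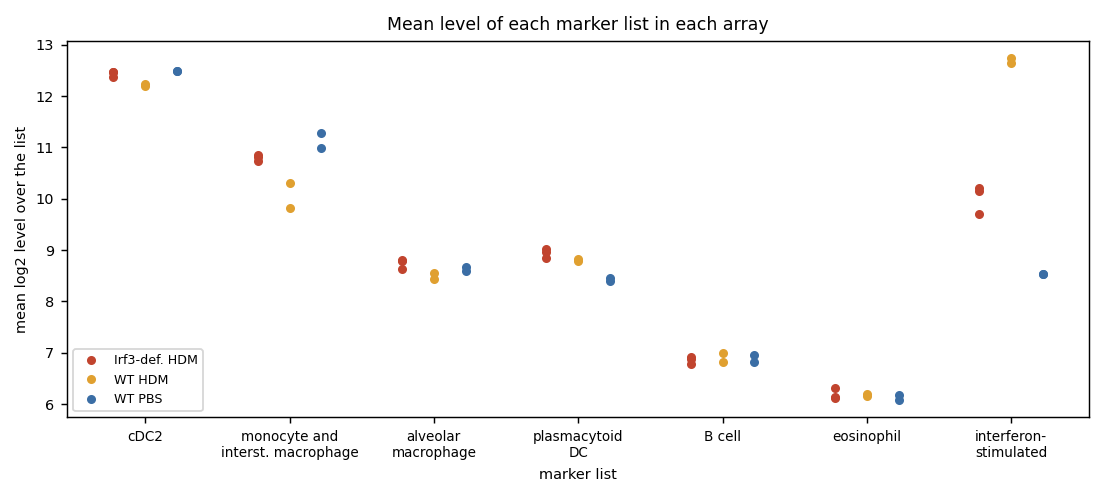
Mean log2 level in every array, with treated Irf3-deficient (red), treated wild type (yellow) and PBS wild type (blue). From left to right are the cDC2, monocyte and interstitial macrophage, alveolar macrophage, plasmacytoid, B cell and eosinophil markers and the interferon-stimulated genes. The T and NK cell, neutrophil and epithelial lists are not drawn. The monocyte and macrophage list is lowest in the treated wild type arrays (9.81 and 10.31), and the B cell list overlaps between all groups.

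Some receptor genes share a chromosome with Irf3. It is on chromosome 7, and so are 8 of the 37 members. In gene order, Siglece was 58 measured genes from Irf3, Cd33 63, Siglecg 72, Siglecf 73, Siglech 118 and Cd22 138. Between the treated genotypes, Cd33 and Siglece were higher by 1.22 and 1.01 and Cd22 was lower at -0.55, while Siglecf, Siglecg and Siglech differed by 0.20, -0.05 and 0.07 without passing. Whether sequence around the Irf3 locus differs between the strains was not tested.

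Against PBS wild type, treated Irf3-deficient cells differed in 5 members that were higher and 3 that were lower, 21.6% of the members against 10.8% of all genes (5.89% called higher and 4.91% called lower). Among the 25 brighter members 32.0% were called, against 23.1% of all genes in that range. This comparison joins genotype and treatment and cannot separate them. Without PBS array 1, 1 member, St6galnac2, was still called higher and 0 lower, with 749 genes called in all, against 2153 with every array. Without PBS array 2, 3 were higher and 1 lower, and without Irf3-deficient array 2, 4 were higher and 1 lower. St6galnac2 was the one call that held without any single array and under each of the planned settings other than a fold limit, which it passed as well.

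Of 10 other genes of sialic acid and amino sugar turnover, outside the rule, 5 fell and 0 rose in treated against PBS wild type, with a median of -0.42 and the other 5 between -0.29 and 0.54, and 3 were higher and 1 lower in Irf3-deficient than in treated wild type cells. Casd1, which O-acetylates sialic acid, fell by 0.91 in wild type (adjusted p = 0.000538), and Siae, the esterase that removes that acetyl group, fell by 0.77 (adjusted p = 0.00331). Npl, which cleaves free sialic acid, fell by 0.63 (adjusted p = 0.0249), the lysosomal galactosidase Glb1 fell by 0.62 (adjusted p = 0.00484) and Ctsa, the protective protein that Neu1 needs in the lysosome, fell by 0.56 (adjusted p = 0.00147). In Irf3-deficient against treated wild type cells Ctsa was higher by 0.68 (adjusted p = 0.00018), the lysosomal sialic acid exporter Slc17a5 by 0.56 (adjusted p = 0.00343) and Siae by 0.46 (adjusted p = 0.033), while Amdhd2, an enzyme of amino sugar recycling, was lower at -0.37 (adjusted p = 0.0401).

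Signalling partners of the Siglecs gave mixed counts. Beside these and the counts of turnover genes and ligand carriers, 17.6% of all genes were called in wild type. Between the treated genotypes 19.7% were. Among brighter genes the shares were 34.0% and 39.6%. Of 6 partner genes, 0 rose and 2 fell in wild type. These were the lipid phosphatase gene Inpp5d at -0.78 (adjusted p = 0.000389) and the kinase gene Syk at -0.54 (adjusted p = 0.00276). In Irf3-deficient against treated wild type cells these genes were higher by 0.62 and 0.61, and Ptpn6, which encodes the phosphatase SHP-1 recruited by inhibitory Siglecs, was lower at -0.46 (adjusted p = 0.00349). A list of ligand carriers held Cd24a, Spn, Selplg, Ptprc and Mag, the last of which is itself a Siglec gene outside the rule. Of these 5 genes, Selplg rose by 0.31 and Cd24a and Spn, at -0.56 and -0.52, fell in treated against PBS wild type. Selplg was lower in Irf3-deficient than in treated wild type cells, at -0.37 (adjusted p = 0.003), and the other 4 did not pass.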

How the data were processed

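The authors deposited log2 expression levels of 35556 probesets. R 3.2.1, oligo and RMA are listed with no role or order, per the submitters' processing notes. RMA usually corrects background, normalises between arrays by quantiles and summarises probes, so a change shared by most transcripts would not show. No detection call, scan date or batch is given in the sources used here. Probesets with 1 symbol in the platform annotation (21789) were used, with symbols updated through the RefSeq table of GRCm38.p6 (19856 of 19938 genes matched), keeping the brightest probeset of each of 999 genes with several. No genome build is named for the arrays, so RefSeq served for names, gene order and promoter sequences only.

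One linear model with a mean for each group was fitted to all arrays (limma 3.58.1, R 4.3.3), with an intensity trend, 4 residual and 8.34 prior degrees of freedom, two-sided. The fit was tested on simulated data. The labels do not say whether pools came from separate days, so p-values measure the spread between these pools. The members, lists and tests were chosen with earlier results of these data known. All members are accounted for, array by array where called in any comparison. Lists are given by counts, mostly with values of the genes called in either of the first 2 comparisons. For the monocyte and alveolar macrophage lists, values of single genes are not given, and for the interferon-stimulated genes only ranges are. Alternatives were fits without the trend or of 2 groups, median centring, quantile normalisation, the brighter genes alone, probeset means, a replicate block, a 1.5-fold limit and leaving out each array.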

Additional observations from a re-analysis of the deposited data

How the results depend on the processing

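With a limit of at least 1.5-fold, 2 members rose in treated against PBS wild type, 3 were lower in Irf3-deficient than in treated wild type, and 3 were higher and 0 lower in Irf3-deficient than in PBS wild type. Against PBS wild type, 3 members were higher in Irf3-deficient cells after median centring and 3 after quantile normalization. Leaving out 1 array at a time gave 3 to 6 members risen and 5 to 9 fallen in wild type, 7 to 10 higher and 4 to 4 lower between the treated genotypes, and 1 to 5 higher and 0 to 3 lower against PBS wild type. The number of all genes called varied with the array left out as well. The other member counts stayed within 1.5 times, and no called difference changed direction under any alternative. Of 14 calls each, 8 in wild type (Cd22, Cd33, Cmah, Siglec1, Siglece, St3gal6, St6gal1 and St8sia4) and 10 between the treated genotypes (Cd22, Cd33, Nans, Siglec1, Siglece, St3gal2, St3gal6, St6gal1, St6galnac2 and St8sia6) held without each array and under every setting tried but the fold limit. Cmah, dimmer than the median gene, was not part of the fit of the brighter genes alone, so its call was not tried there.

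The labels number the samples but do not say whether arrays were paired. Deviations of same-numbered arrays correlated at -0.23 to 0.18, and those of differently numbered arrays at -0.28 to 0.28. In a group of 2 arrays the deviations mirror each other, so these values cannot settle the question. With the replicate block, 4 members rose and 9 fell in wild type, 10 were higher and 4 lower between the treated genotypes, and 5 were higher and 2 lower against PBS wild type. The block ended the calls of St6galnac4 in wild type (adjusted p = 0.071), St3gal4 between the treated genotypes (0.188), and Cmah (0.125), Siglece (0.21) and St8sia4 (0.171) against PBS wild type. It added those of St3gal5 between the treated genotypes (0.0246) and of Nans (0.026) and St8sia6 (0.0218) against PBS wild type. Members dimmer than the median gene, 12 of 37, have no detection call, so whether they were above background was not tested. The same holds for the markers Ms4a1, Ly6g, Nkg7 and Ncr1, which were also dimmer than the median gene.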

Other observations

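Some genes that prepare the glycans on which sialic acid is placed were called as well. For this list and the next, 17.6% of all genes were called in wild type and 19.7% between the treated genotypes. Among genes brighter than the median gene, these shares were 34.0% and 39.6%. Of 11 measured genes of acceptor glycans and gangliosides, 1 rose and 3 fell in treated against PBS wild type, and 5 were higher and 2 lower in Irf3-deficient than in treated wild type cells, with medians of -0.09 and -0.05. Ugcg, which starts the glycosphingolipids, was higher in Irf3-deficient cells by 0.98 (limma adjusted p = 3.02e-05), and B4galnt1, which extends GM3 to complex gangliosides, by 0.83 (adjusted p = 0.000119). The galactosyltransferases B4galt1 and B4galt6 were higher by 0.70 and 0.65, and C1galt1, which makes the core of O-glycans, by 0.65, whereas B4galt4 and B4galt5 were lower, at -0.53 and -0.46. In wild type, B4galt5 rose by 0.72 and B4galt6, B4galt1 and Ugcg fell, at -0.90, -0.58 and -0.39.

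Of 6 genes that supply UDP-GlcNAc, the precursor used by Gne, Gfpt1 rose by 0.51 and Uap1 by 0.56 in treated against PBS wild type. In Irf3-deficient against treated wild type cells Gfpt1 and Uap1 were lower, at -0.77 and -0.53, and Pgm3 was higher by 0.54.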
